A study of Mus musculus with 3 samples.

Results

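The genes described here are the 76 whose symbols take the form Mrpl or Mrps followed by a number, the naming pattern of mitochondrial ribosomal proteins, out of 15058 genes in the deposited tables. All 76 were listed in both tables, and all passed the filter of at least 1 CPM, a count scaled to the size of its library, in 1 or both libraries of each comparison. By their known place in the ribosome, 49 encode proteins of the large subunit and 26 proteins of the small subunit. The label holds for all but 1: Mrps36 keeps its ribosomal name but is a component of the α-ketoglutarate dehydrogenase complex of the citric acid cycle. Mrps18a and Mrps30, despite the letter S, belong to the large subunit and were counted there. A further 7 genes of mitochondrial ribosomal proteins carry other symbols (Dap3, Chchd1, Aurkaip1, Ptcd3, Gadd45gip1, Mrp63 and Ict1) and are described beside the 76.

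Total RNA was sequenced from erythroblasts (red-cell precursors that still have a nucleus) of E10.5 mouse embryos, collected from their circulating blood. Drosha, the nuclear enzyme that starts microRNA processing, was deleted with a Cre under the endothelial gene Cdh5, so deletion depends on Cdh5 having been active in the cells or their ancestors. The control library held CD71+ Ter119 high cells of Drosha fl/fl or Drosha fl/+ embryos, with Drosha abundance labelled WT, and the labels name no Cre for it. The Drosha-null library held CD71+ Ter119 high cells of Drosha fl/fl;cdh5-cre+ embryos, with Drosha abundance labelled null. The Ter119-low library held CD71+ Ter119 low cells of Drosha fl/fl;cdh5-cre+ embryos, with Drosha labelled as abundant as in WT. All groups share the age, the CD71+ gate and at least 1 floxed Drosha allele. The design text speaks of 5 embryos whose sorted cells were pooled. Each group is 1 library, so no difference has a replicate check and no test between conditions was possible.

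Mitochondrial ribosomes make the few proteins that are encoded in the mitochondrial genome, all of them subunits of the oxidative phosphorylation complexes. Their RNAs come from mitochondrial DNA, but every one of their proteins is encoded in the nucleus, made in the cytosol and imported. Many of these proteins descend from the bacterial ribosome, and others were added in the mitochondrial lineage. Erythroblasts use mitochondria for the first and last steps of heme synthesis and lose them as red cells mature.

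Total counts were between 9325814 and 9497425 per library. Ribosomal RNA took between 27.9% and 28.7% of the counts, and globin genes took 25.01% (control), 17.06% (Drosha-null) and 23.11% (Ter119-low). Counts were scaled by trimmed mean of M values (TMM), with factors of 0.885, 1.19 and 0.946. Drosha itself had 324 (control), 122 (Drosha-null) and 244 (Ter119-low) counts. All 10 erythroblast markers checked were detected in each library, with summed levels of 278200 CPM (control), 141200 CPM (Drosha-null) and 241400 CPM (Ter119-low). These sums include the globin genes Hbb-bh1, Hbb-y and Hba-x, and the other erythroblast markers were not summed apart from them. Of 7 listed cardiac markers, 5 or 6 were detected per library, with summed levels of 8.93, 26.6 and 6.62 CPM in the same order; markers at 0 were Myh7 and Nppa (control), Myh6 (Drosha-null), and Myh6 and Tnnt2 (Ter119-low). The 8 endothelial markers were all detected and summed to 10.47, 22.43 and 11.11 CPM. The 6 listed macrophage markers summed to 5.36, 4.85 and 2.69 CPM, with Cx3cr1, Emr1 and Mrc1 at 0 in the Ter119-low library. The 6 listed megakaryocyte markers summed to 48.8, 62.4 and 55.1 CPM, and those at 0 were Gp1bb (control), Pf4 and Ppbp (Drosha-null), and Gp1bb and Ppbp (Ter119-low). The part of these differences in what follows was not tested.

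Levels per gene length, as the deposited FPKM (fragments scaled to gene length and library size), spanned a range of 19.6-fold among the 76 genes in the control, from 5.10 for Mrpl1 to 99.85 for Mrpl18, with a median of 17.84. For Drosha-null the median FPKM was 17.27 and for Ter119-low 18.3, and the ranges were 4.26 to 62.95 and 3.73 to 105.2. In the control 64 of the 76 were at 10 FPKM or more and 8 at 50 or more, against 59 and 2 for Drosha-null and 59 and 7 for Ter119-low. The quartiles were 12.23 and 31.98 FPKM in the control, 10.25 and 24.54 for Drosha-null and 10.56 and 29.75 for Ter119-low. Gene by gene, the log2 ratio of Drosha-null to control FPKM had a median of -0.24, with 53 of 76 below 0, although the medians of the levels were close. The medians of large and small subunit genes were close to each other within each library, at 17.45 and 18.71 FPKM (control), 17.18 and 17.54 FPKM (Drosha-null) and 17.56 and 21.13 FPKM (Ter119-low).

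The 8 most abundant in the control were Mrpl18, Mrpl42, Mrps21, Mrpl23, Mrpl52, Mrpl30, Mrps28 and Mrps18c. Mrpl18, a protein of the large subunit related to the bacterial protein that binds 5S RNA, ranked 1 by FPKM in every library, at 99.85 (control), 62.95 (Drosha-null) and 105.2 (Ter119-low). Mrpl42, a large subunit protein added in the mitochondrial lineage, was at 93.25, 31.87 and 88.65 FPKM in that order, and ranked 2 in the control and in the Ter119-low library but 13 in the Drosha-null library. At the lower end, Mrpl45, which lies near the exit tunnel and helps to hold the ribosome at the inner membrane, was at 5.78, 4.26 and 5.25 FPKM.

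**Figure D1:**
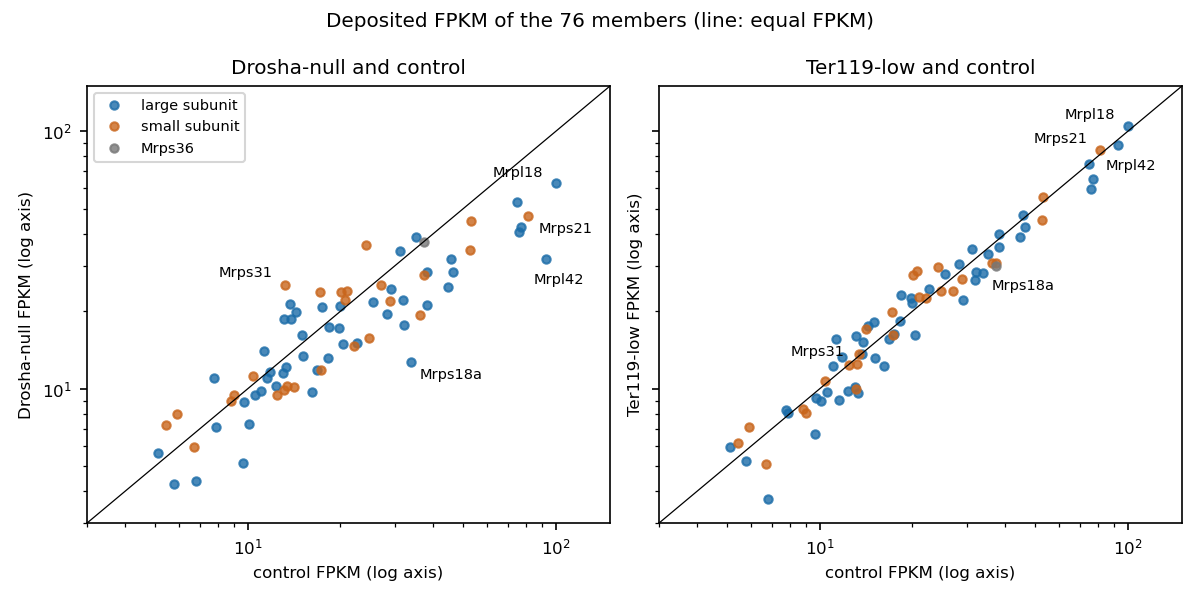
Deposited FPKM of the 76 genes in the control (horizontal, log axis) against the Drosha-null library (left) and the Ter119-low library (right), 1 point per gene, colored by subunit, with the line of equal FPKM. On the left Mrpl42 (93.25 against 31.87) and Mrps18a (33.96 against 12.7) lie farthest below the line and Mrps31 (13.25 against 25.21) above it; on the right the points follow the line.

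Summed over the 76 genes there were 18588 (control), 15295 (Drosha-null) and 17984 (Ter119-low) counts, which is 0.196% (95% exact Clopper-Pearson interval 0.193% to 0.199%), 0.164% (0.161% to 0.167%) and 0.191% (0.188% to 0.194%) of all counts. Such intervals cover counting error only, since no molecular identifiers are named and several reads can come from 1 molecule. After TMM scaling the sums were 2212, 1373 and 2019 CPM. The Drosha-null sum was 1.61-fold lower than the control's, a log2 ratio of -0.69 (-0.72 to -0.66). For large subunit genes the ratio was -0.76 (-0.80 to -0.73) and for small subunit genes -0.55 (-0.60 to -0.49). In bulk RNA, less RNA of these genes per cell and a smaller share of the cells that carry it cannot be told apart.

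Drosha-null and control, both Ter119 high, were compared to see the set where Drosha was lost. A gene was called when its TMM-scaled ratio was 2-fold or more and the 95% counting interval excluded 1. By that rule 18 of the 76 genes (23.7%) were lower in the Drosha-null library and 0 were higher, where the background over all 10769 genes was 7.79% lower and 12.4% higher. The median log2 ratio of the 76 was -0.68, with the middle part from -0.98 to -0.36 (quartiles), against -0.02 over all genes. Below 0 were 69 of the 76 (90.8%), against 51.1% of all genes. With TMM the interval lay wholly below 0 for 60 of the 76 and wholly above it for 1. The same shares over all genes were not computed.

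The count of calls depended on the scaling and went with gene length. With library totals in place of TMM every log2 ratio of this comparison is higher by 0.43, the median of all genes shifts by 0.45, and the calls over all genes move from 839 lower and 1333 higher to 294 lower and 2502 higher. The members' median was then -0.24, 53 of 76 were below 0, and 2 (Mrpl42 and Mrps18a) were called lower, a share of 2.63% that was near the background of 2.7%. With library totals, fewer of the members' intervals lay wholly below 0 and more lay wholly above it. Relative to the median of all genes the members stood at -0.66 with TMM and -0.67 with library totals. Within 10 classes of gene length the members' median was -0.35 below the median of all genes of their class, and after that centring 4 of 76 (5.26%) were called lower against a background of 5.72%.

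**Figure D2:**
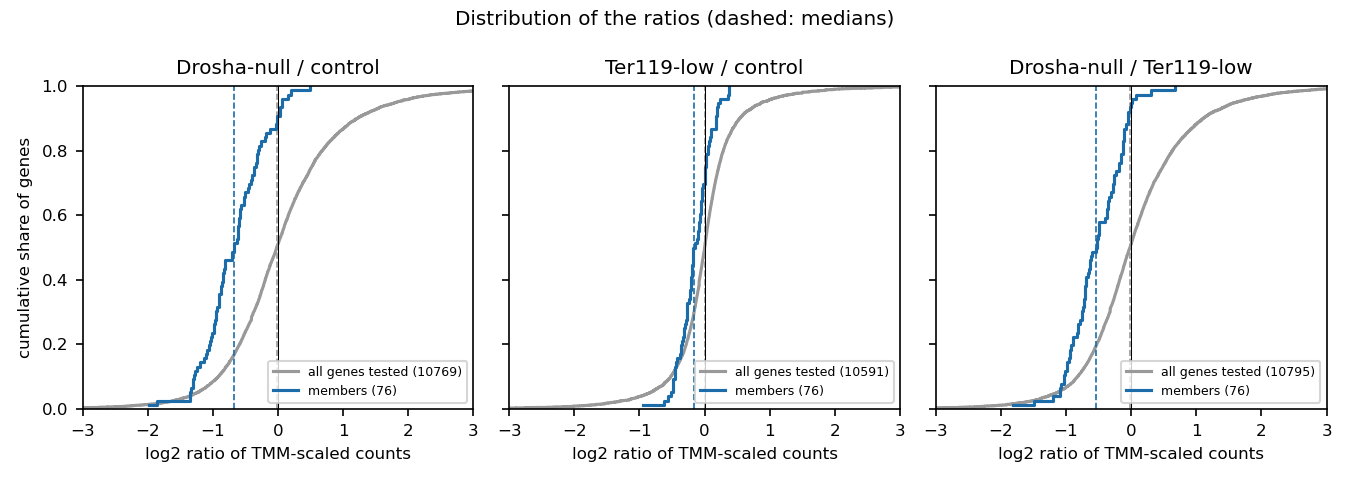
Cumulative share of genes (vertical) by log2 ratio of TMM-scaled counts (horizontal) for the 76 members and for all genes tested in each comparison; dashed lines are medians. The members' curve lies to the left of all genes in the Drosha-null comparisons (medians -0.68 and -0.02 against the control, -0.54 and -0.02 against Ter119-low) and close to it for Ter119-low against the control (-0.16 and 0.00); with library totals the members' medians are -0.24, -0.20 and -0.07.

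The lowest ratio belonged to Mrpl42, a protein found in mitochondrial but not bacterial large subunits (chromosome 10, 95480805 to 95501940, minus strand, GRCm38). It had 530 (control), 177 (Drosha-null) and 498 (Ter119-low) counts. The Drosha-null library was low and the other two were close together, and the log2 ratio to the control was -1.99 (interval -2.24 to -1.74). Mrps18a (chromosome 17, 46110986 to 46128910, plus strand), one of the S18 paralogs, had 257, 94 and 211 counts in the same order and a ratio of -1.85 (-2.21 to -1.51). These were also the pair that stayed called lower with library totals, at -1.55 (-1.81 to -1.31) and -1.42 (-1.78 to -1.08).

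Among the S18 paralogs, Mrps18a stood apart from Mrps18b and Mrps18c. Mrps18b, which sits in the small subunit, had 258 (control), 237 (Drosha-null) and 227 (Ter119-low) counts, with a ratio of -0.53 (-0.79 to -0.27) that was not called. Mrps18c, the small subunit homolog of the bacterial S18 protein, had 229, 147 and 195 counts and was called lower at -1.05 (-1.36 to -0.74). With library totals Mrps18c was not called, at -0.61 (-0.92 to -0.31). The interval of Mrps18a did not overlap that of Mrps18b or Mrps18c, while the intervals of Mrps18b and Mrps18c overlapped each other. Of the annotated exon bases, 30.5% of Mrps18b and 23.2% of Mrps18c are shared with another annotated gene. Part of the counts of both could thus belong elsewhere.

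Other large subunit genes called lower were Mrpl52, Mrpl11, Mrpl23, Mrpl20, Mrpl12, Mrpl33, Mrpl48, Mrpl36, Mrpl18, Mrpl55 and Mrpl21, at ratios from -1.35 to -1.02. Mrpl12, the homolog of the bacterial L7/L12 protein that forms the flexible stalk where translation factors bind, had 324 (control), 176 (Drosha-null) and 300 (Ter119-low) counts (-1.29, -1.56 to -1.02). Mrpl11, which forms the base of that stalk, had 258, 135 and 177 counts (-1.34, -1.65 to -1.04), so that for it the Ter119-low library lay between the other two. Mrpl10, the third protein of the stalk, was not called, with 177, 166 and 137 counts (-0.50, -0.81 to -0.19). Mrpl18, at the top of the FPKM order, had 846, 522 and 882 counts and was called at -1.10 (-1.26 to -0.94). Mrpl55 was called on 46 and 29 counts, and its interval was the widest of the 18, from -1.80 to -0.37.

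Small subunit genes called lower were Mrps14, Mrps21, Mrps10, Mrps18c and Mrps16, all homologs of bacterial proteins. Mrps14 had 656 (control), 342 (Drosha-null) and 554 (Ter119-low) counts, a ratio of -1.35 (-1.54 to -1.16). Mrps21 had 274, 154 and 282 counts (-1.24, -1.53 to -0.95). Mrps12, the homolog of the decoding-site protein S12, was not called, with 170, 126 and 154 counts (-0.84, -1.18 to -0.50). Of 10 small subunit genes counted as added in the mitochondrial lineage, Mrps18b among them, 0 were called, where 7.79% of all genes were called lower. Their median was -0.26 with TMM, but 0.17 with library totals and 0.09 above the median of their length classes. The 16 small subunit genes of bacterial descent had 5 calls and a median of -0.84 with TMM. Their median with library totals or within length classes was not computed.

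The exception on the other side was Mrps31, a small subunit protein of the mitochondrial lineage (chromosome 8, 22411361 to 22429665, plus strand). It had 185 (control), 345 (Drosha-null) and 172 (Ter119-low) counts. The Drosha-null library alone was high, with a ratio of 0.49 (0.23 to 0.76) to the control, short of the 2-fold rule, and 0.92 (0.66 to 1.19) with library totals. With TMM it was the 1 gene of the 76 whose interval lay wholly above 0. With library totals other members joined it, among them Mrpl22 at 0.64 (0.24 to 1.04) and Mrps22 at 0.58 (0.36 to 0.81). Mrpl22, at the wall of the exit tunnel, had 89, 136 and 88 counts (0.20, -0.19 to 0.61), and Mrps22 had 267, 393 and 325 counts (0.15, -0.08 to 0.38). Mrps36, the member outside the ribosome, had 230, 224 and 182 counts (-0.45, -0.72 to -0.17).

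**Figure D3:**
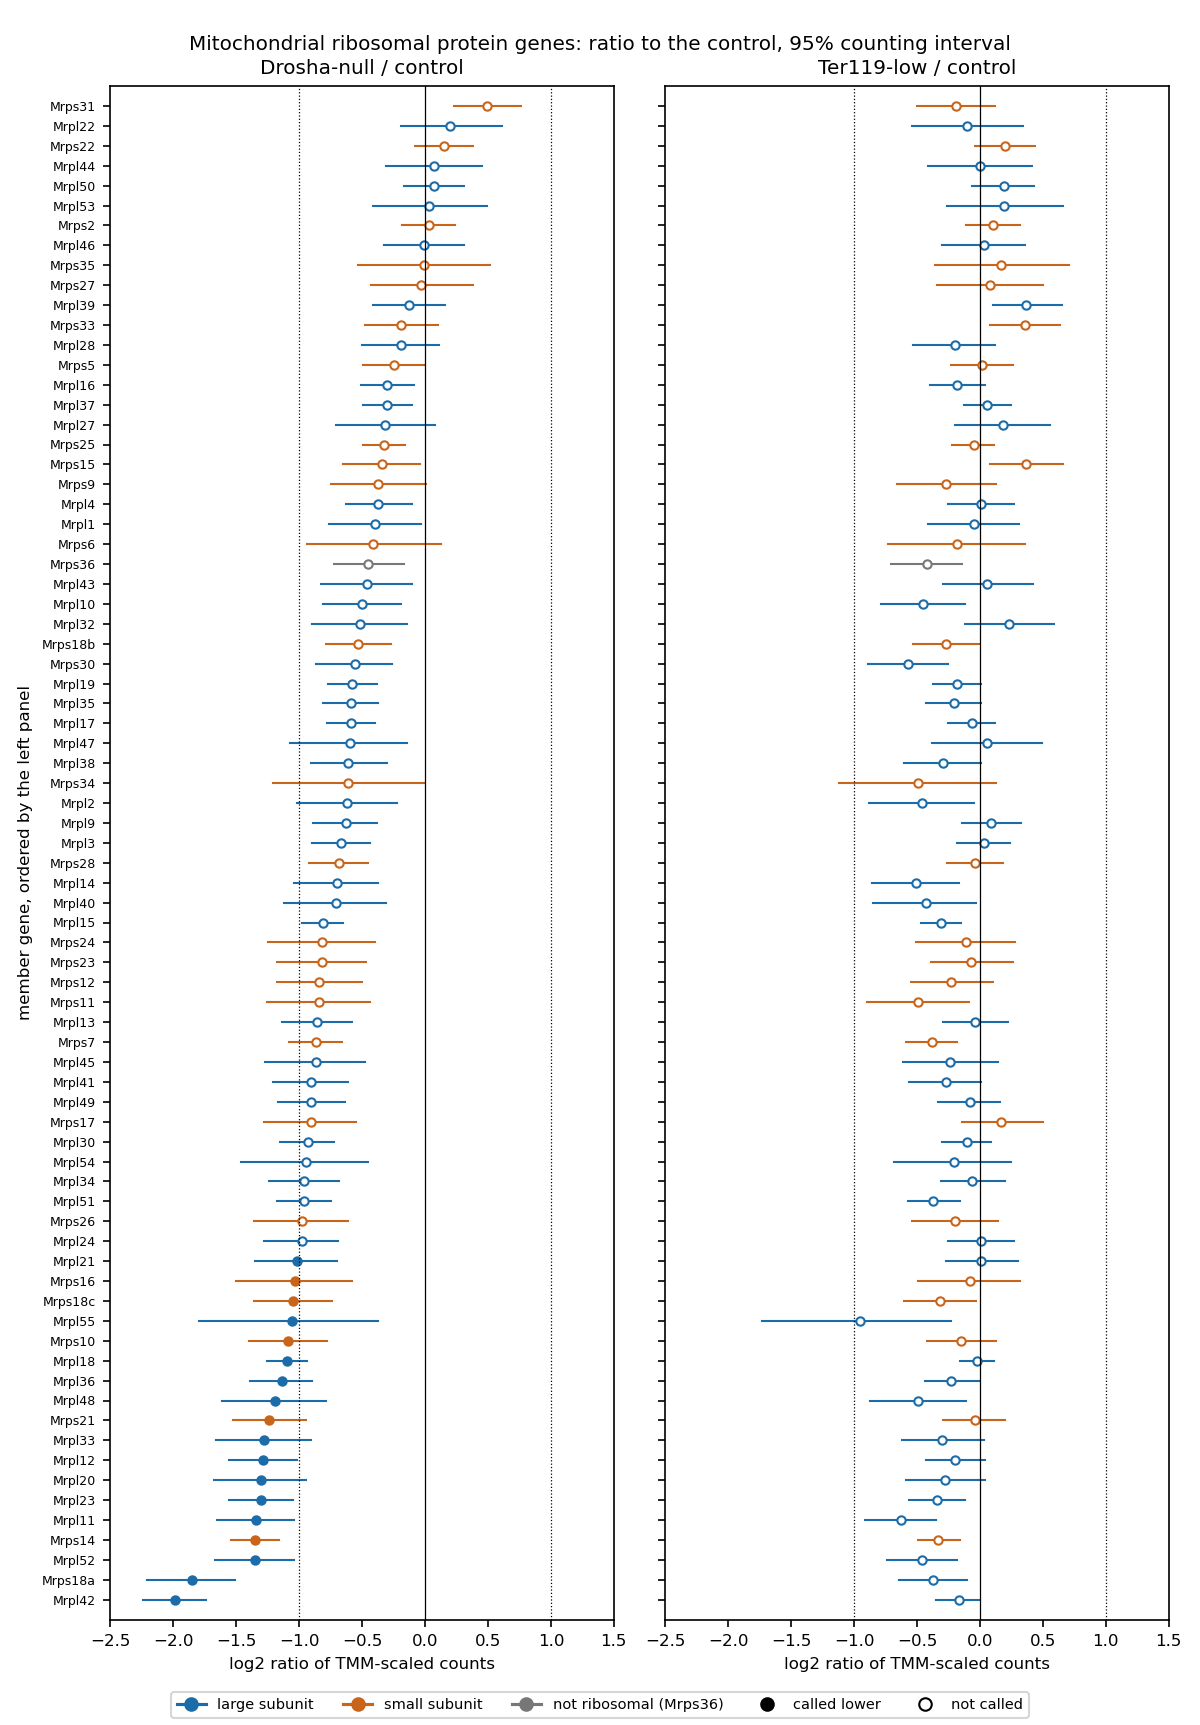
Log2 ratio of TMM-scaled counts (horizontal) of each of the 76 genes (vertical, ordered by the left panel) in the Drosha-null (left) and Ter119-low (right) library over the control, with 95% counting intervals; color gives the subunit, filled points are called lower and dotted lines mark 2-fold. On the left 18 genes are called lower and Mrps31 is at the top with 0.49; on the right 0 are called; with library totals the points of the left panel lie 0.43 farther right and 2 are called lower.

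Promoters are shown for the genes at the ends of that order, since genes of mitochondrial ribosomes often carry sites of a few shared factors near their starts: NRF1, the ETS protein GABPA and YY1. RefSeq starts on GRCm38.p6 were matched for 67 of the 76. The lines give 150 bases before to 30 after the start, 5′ to 3′ on the gene's strand, with matches on either strand in capitals: CCGGAAG (ETS) or ATGGCGG (YY1), or their reverse complements.
Mrpl42, chr10:95501920-95502099, minus strand: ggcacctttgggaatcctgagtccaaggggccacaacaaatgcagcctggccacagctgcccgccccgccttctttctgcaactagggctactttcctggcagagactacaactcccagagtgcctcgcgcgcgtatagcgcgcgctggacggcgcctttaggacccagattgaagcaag
Mrps18a, chr17:46110854-46111033, plus strand: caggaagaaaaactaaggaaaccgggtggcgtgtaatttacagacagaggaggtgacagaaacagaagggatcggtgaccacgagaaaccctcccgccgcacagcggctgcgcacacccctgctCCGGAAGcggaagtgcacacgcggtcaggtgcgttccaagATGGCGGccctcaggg
Mrpl52, chr14:54426759-54426938, plus strand: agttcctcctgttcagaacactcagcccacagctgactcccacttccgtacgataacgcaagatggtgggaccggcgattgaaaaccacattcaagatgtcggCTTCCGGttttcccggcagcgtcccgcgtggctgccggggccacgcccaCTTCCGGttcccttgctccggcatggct
Mrps31, chr8:22411190-22411369, plus strand: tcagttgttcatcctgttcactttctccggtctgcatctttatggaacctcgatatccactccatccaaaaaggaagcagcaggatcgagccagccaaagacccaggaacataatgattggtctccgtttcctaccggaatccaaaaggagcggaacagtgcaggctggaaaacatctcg
Mrps18a has the ETS letters starting 26 bases before the start and the YY1 letters 14 after it. Mrpl52 has the ETS letters in the reverse orientation 47 bases before the start and 2 after it. Mrpl42, the lowest, and Mrps31, the highest, both had no match in this window.

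In the whole window of 250 bases before to 50 after the start, searched on both strands, CCGGAAG was in 24 of the 67 members (35.8%) and 22.1% of the 8704 genes with a promoter in the table. ATGGCGG was in 13 (19.4%) against 10.4%, and CGCATGCG, the NRF1 letters, in 7 (10.4%) against 4.84%. The E-box CACGTG was in 5 (7.46%) against 12.1%, and CTCGCGAG, a palindrome common in mammalian promoters, in 1 (1.49%) against 2.42%. At least 1 of the ETS, YY1 and NRF1 letters was in 35 members (52.2%) against 33.1%. The members had 1.09 RefSeq starts per gene and all genes 1.27. All genes were not matched to the members in base composition or level, and the source of these differences was not tested. In the Drosha-null library over the control the median was -0.90 for members with the ETS letters (9 called lower) and -0.62 for those without (9 called lower). For the YY1 letters the order was the other way, with a median of -0.30 (1 called lower) with them and -0.85 (17 called lower) without. For the NRF1 letters the medians were -0.52 with (0 called lower) and -0.83 without (18 called lower). The 5 members with the E-box had a median of -1.05 (3 called lower) and those without it -0.68 (15 called lower). Over all tested genes with the same letters the medians were -0.15 (ETS), -0.06 (YY1), -0.09 (NRF1) and -0.11 (E-box). Of all genes 7.79% were called lower. These splits were made with TMM only and without length centring, and a link of letters and ratio was not tested. A match is a description of letters, and binding was not measured.

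Ter119-low and control were compared across both genotype and Ter119 gate, so these cannot be told apart here. The members were near the control: 0 of 76 were called in either direction, where 2.76% of 10591 genes were called lower and 2.9% higher. The median was -0.16 against 0.00 over all genes, 54 of 76 were below 0, and the interval held 0 for 53. With library totals the median was -0.07 and 42 were below 0, and within length classes it was -0.04.
With TMM, intervals wholly below 0 were found for 20 members, and the same share over all genes was not computed. The lowest ratio was that of Mrpl55, on 46 (control) and 25 (Ter119-low) counts (-0.95, -1.73 to -0.23). Among members at 10 CPM or more, 6 are given by the interval bound nearest 0. Mrpl11 had 258 (control) and 177 (Ter119-low) counts (-0.63, -0.91 to -0.35). Mrps30, a large subunit protein despite its name, had 193 and 138 counts (-0.57, -0.89 to -0.25), and 173 in the Drosha-null library, which stood at -0.56 to the control with TMM and at -0.13 with library totals. The others were Mrps7 (458 and 372 counts) at -0.38, Mrpl52 (249 and 192) at -0.46, Mrpl14 (168 and 125) at -0.51 and Mrps14 (656 and 554) at -0.33. Also with TMM, intervals wholly above 0 were found for 3 members: Mrps15, with 176 and 241 counts (0.37, 0.08 to 0.66), Mrpl39, with 192 and 263 (0.37, 0.10 to 0.65), and Mrps33, with 189 and 257 (0.36, 0.08 to 0.64).

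Drosha-null and Ter119-low cells carry the same labelled genotype and differ in gate and in labelled Drosha abundance. Lower in the Drosha-null library were 9 of 76 genes (11.8%) and higher 0, where the background over 10795 genes was 5.94% lower and 10.8% higher. The median was -0.54 against -0.02 over all genes. With library totals it was -0.20, with 2 called lower (2.63%, against 2.79% of all genes) and 1, Mrps31, called higher (18.7% of all genes); within length classes it was -0.32, also with 2 called lower, against a background of 5.06%. The genes called lower were Mrpl42 (-1.81, -2.07 to -1.56), Mrps18a (-1.49), Mrps21 (-1.19), Mrps17 (-1.09), Mrpl12 (-1.09), Mrpl18 (-1.08), Mrpl20 (-1.03), Mrpl21 (-1.03) and Mrps14 (-1.02). Mrps17, the homolog of a bacterial protein that binds early in small subunit assembly, had 152 (control), 107 (Drosha-null) and 182 (Ter119-low) counts. With TMM Mrps31 stood at 0.68 (0.41 to 0.95) and was again the 1 gene with an interval wholly above 0. With library totals other members joined it, among them Mrpl22 at 0.64 (0.24 to 1.05). This comparison shares a library with each of the others, so its values are not separate evidence.

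Gene length moved with the members' ratios. The 38 members of up to 1056 bases had 16 of the 18 calls against the control and a median of -0.95, and the 38 longer ones had 2 calls and a median of -0.48. In the Ter119-low library the medians of these parts were -0.19 and -0.07. Over all genes of the Drosha-null comparison the median rose from -0.59 in the shortest class (205 to 1158 bases, 23.4% called lower) to 0.29 in the longest. Of the members 43 fell in the shortest class, with 16 called lower and a median of -0.86, and 31 of them were under the class median. In the second class, 1158 to 1642 bases, 17 members had a median of -0.46 and 0 calls, against a class median of -0.28 and 12.4% called lower. Across the 76 genes Spearman's rho of length and ratio was 0.39, and across all genes 0.31, as a description over genes that share 1 pair of libraries.
After centring on the length classes Mrpl42 stood at -1.40, Mrpl11 at -1.35, Mrps18a at -1.27 and Mrps14 at -1.19, the 4 that remained at 2-fold or more below. Mrpl11 and Mrps14 are among the longer members, with 2882 and 1970 bases. Mrps31 stood at 0.77. Members above the median FPKM of the Ter119-low library, the library outside the ratio, had 15 calls and a median of -0.92, and those at or below it 3 calls and -0.58; the former were also shorter, with a median length of 954 bases against 1258.

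**Figure D4:**
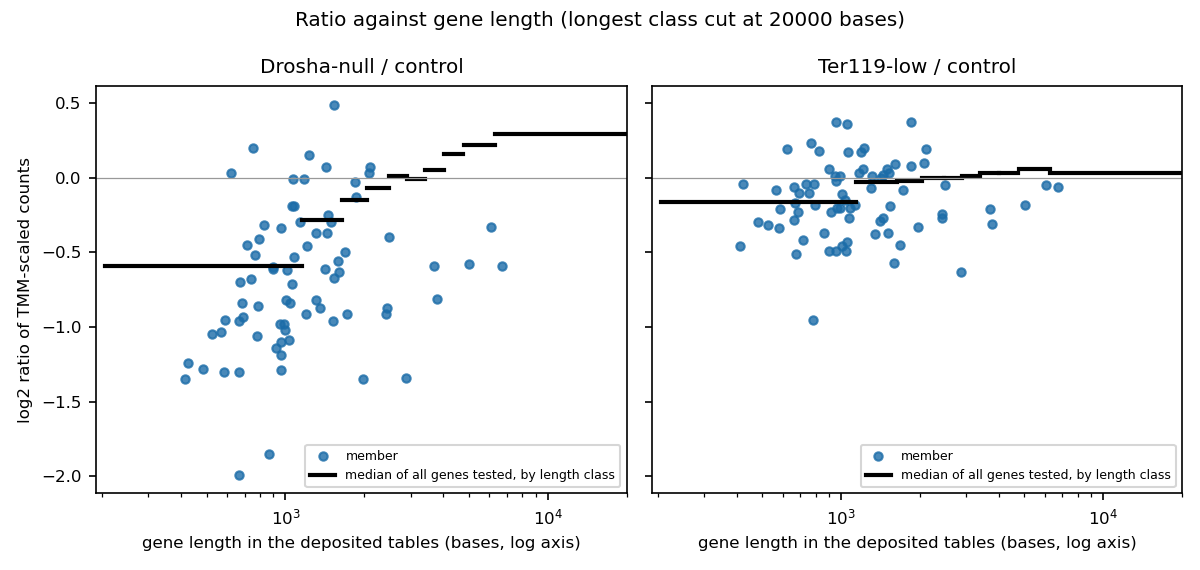
Log2 ratio of TMM-scaled counts (vertical) against gene length in bases (horizontal, log axis) for the 76 members (points), with the median of all genes in each of 10 length classes (black bars), for the Drosha-null (left) and Ter119-low (right) library over the control. On the left the class medians climb from -0.59 to 0.29 and 55 of 76 members lie under the median of their class; on the right 43 do. Library totals shift points and bars of the left panel alike by 0.43.

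By descent, the 45 members with a bacterial homolog had 13 calls and a median of -0.81 in the Drosha-null library, and the 29 added in the mitochondrial lineage had 4 calls and a median of -0.56. Of the S18 paralogs, Mrps18c was counted with the former, and Mrps18a and Mrps18b with the latter. With length centring the medians were -0.37 and -0.18, and with library totals -0.38 and -0.13. The difference was not seen in the large subunit. There 29 bacterial homologs had 8 calls and a median of -0.67, and 19 genes of the mitochondrial lineage had 4 calls and -0.71. In the small subunit the medians were -0.84 and -0.26. These subunit values are with TMM and without length centring. Over all genes 7.79% were called lower. By subunit, 13 of 49 large subunit genes and 5 of 26 small subunit genes were called, with medians of -0.70 and -0.65 with TMM. Those medians were -0.37 and -0.17 with length centring, and -0.27 and -0.21 with library totals.

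Neighbors that share a promoter region were examined because 17 of the 76 genes start within 1000 bases of an opposite-strand protein-coding gene that lies upstream and points away from it. Pairs whose starts overlap were not counted. Of the 17 partners 0 were members, but 1 pair of members with overlapping starts, Mrpl46 and Mrps11 on chromosome 7, is outside this count; Mrpl46 stood at -0.01 (-0.33 to 0.31) and Mrps11 at -0.84 (-1.26 to -0.44). The members with such a partner had a median of -0.62 in the Drosha-null library and 1 call, and those without had -0.68 and 17 calls. Of the partners 15 passed the filter, with 1 called lower, 0 called higher and a median of -0.32, where 7.79% of all genes were called lower and 12.4% higher. Mrps12 (-0.84) starts 172 bases from Sars2, the mitochondrial seryl-tRNA synthetase, which had 34 (control), 77 (Drosha-null) and 35 (Ter119-low) counts (0.76, 0.17 to 1.40). Mrpl49 (-0.91) starts 59 bases from Fau, which encodes a protein of the cytosolic ribosome, at -0.48, and Mrps18c (-1.05) starts 29 bases from the helicase gene Helq, at -0.32. Annotated exons of 32 members overlap those of another gene. Among the 44 without overlap 11 were called lower, with a median of -0.65.

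The other nuclear genes of mitochondrial translation were set beside the members by lists. Over all genes of the Drosha-null comparison with the control 7.79% were called lower and 12.4% higher with TMM. Of the 7 ribosomal proteins under other symbols, all were below 0 in the Drosha-null library, with a median of -0.47 and 1 called: Chchd1, with 125 (control), 81 (Drosha-null) and 79 (Ter119-low) counts (-1.03, -1.45 to -0.62). Dap3, a GTP-binding protein of the small subunit, had 170, 211 and 212 counts (-0.10, -0.39 to 0.20). Of 27 genes of mitochondrial ribosome assembly, 3 were lower and 0 higher, with a median of -0.25; Mrm1, which methylates the large mitochondrial rRNA, had 214, 123 and 234 counts (-1.20, -1.54 to -0.88). Of 17 mitochondrial translation factors 0 were called, with a median of -0.38. Tufm, the mitochondrial elongation factor Tu, had 356, 432 and 378 counts, and Lrpprc, which stabilizes mitochondrial mRNAs, was at 0.01 with 1398, 1870 and 1453 counts.
Of 17 mitochondrial tRNA synthetases 2 were lower and 1 higher (median -0.20). Of 12 genes of mitochondrial genome transcription and upkeep 1 was lower and 1 higher (median -0.20): Peo1, the helicase Twinkle, at -1.01, and Tfb2m, the factor that opens mitochondrial promoters, with 102 (control), 382 (Drosha-null) and 154 (Ter119-low) counts (1.49, 1.18 to 1.83). Tfb2m was thus high in the library in which most ribosomal protein genes were low. With library totals the medians of assembly, translation factors, synthetases and genome transcription turned positive (0.18, 0.06, 0.23 and 0.23), while that of the 7 other ribosomal proteins was -0.03, and over these 5 lists 0 genes were called lower, with 3 synthetases and 1 genome transcription gene called higher. Over all genes 2.7% were then called lower and 23.0% higher.

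Import genes had a median of -0.76 in the Drosha-null library, with 9 of 26 lower and 0 higher, against 7.79% and 12.4% of all genes. Tomm5, a small subunit of the outer membrane translocase, had 375 (control), 101 (Drosha-null) and 254 (Ter119-low) counts (-2.29, -2.63 to -1.98). Timm9, an intermembrane chaperone, had 143, 58 and 113 counts (-1.70, -2.18 to -1.26). Timm23, the channel of the inner membrane translocase, had 1380, 895 and 1374 counts (-1.03, -1.16 to -0.91). With library totals the import median was -0.32, with 2 called lower and 1 higher (2.7% and 23.0% of all genes). Within length classes it was -0.43, beside -0.44 for the 7 other ribosomal proteins.
Of 37 nuclear genes of complex I 3 were lower and 0 higher (median -0.43), and of 34 genes of complexes III, IV and V 3 were lower and 0 higher (median -0.49). The lower calls were near the share of 7.79% over all genes, of which 12.4% were called higher. Most are short, with median lengths of 657 and 663 bases, and within length classes their medians were 0.02 and -0.05, against -0.35 for the ribosomal proteins. With library totals they were 0.00 and -0.06, with 0 and 1 genes called lower (2.7% of all genes). Cox7b of complex IV had 966, 464 and 795 counts (-1.46, -1.63 to -1.30), while Atp5b, the catalytic subunit of ATP synthase, had 19419, 29846 and 21711 counts (0.21). Mitochondrially encoded RNAs were not analysed here.
Of 10 factors known at such promoters 0 were lower and 1 higher, against 7.79% and 12.4% of all genes. Nrf1 had 249 (control), 254 (Drosha-null) and 244 (Ter119-low) counts (-0.38), Gabpa had 818, 1017 and 953 (-0.09), Yy1 had 319, 333 and 384 (-0.35) and Myc had 1956, 1474 and 1770 (-0.82). The coactivator gene Ppargc1b had 3, 40 and 21 counts, with a ratio of 3.13 (1.68 to 5.67) in the Drosha-null and 2.53 (0.98 to 5.11) in the Ter119-low library.

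**Figure D5:**
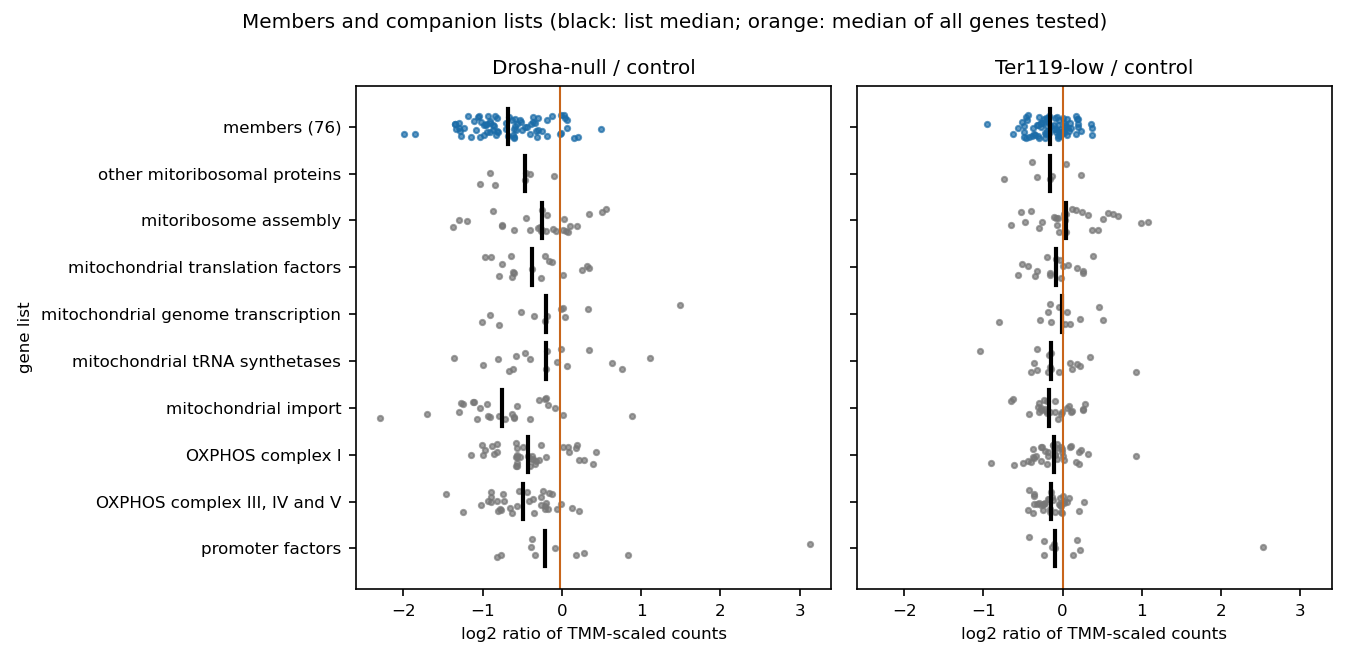
Log2 ratio of TMM-scaled counts (horizontal) of the 76 members and of each companion list (vertical), 1 point per gene, for the Drosha-null (left) and Ter119-low (right) library over the control; black bars are list medians and the orange line is the median of all genes. On the left the import genes (-0.76) and the members (-0.68) have the lowest medians with this scaling, and the assembly genes stand at -0.25; with library totals the medians of 5 lists on the left (assembly, translation factors, synthetases, genome transcription and promoter factors) are above 0.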

How the data were processed

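Erythroblast total RNA was measured in 3 libraries, 1 in each of 3 groups set by the labels. Per the file headers and values, each table sets a cKO library beside the control and holds the authors' expected counts per gene (estimated read counts, not scaled), FPKM values made by the authors from those counts, gene length and library size, and the deposited log2 ratio of the FPKM values. The deposited p-value and the FDR score, which exceeds 1 for some genes, come from a comparison of single libraries by the authors and were not used. The sources used here do not give aligner, counting program, strand use, annotation or build.

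The tables (14640 and 14300 genes) were joined by gene ID, and a gene listed in 1 table only was given 0 counts in the other. Expected counts were rounded. Scaling used TMM in edgeR 4.0.16 under R 4.3.3. Log2 ratios had 0.5 counts added, an exact 95% Clopper-Pearson counting interval and were kept at 1 CPM or more in at least 1 of the pair. No model was fitted, since each group is 1 library. DESeq2 1.42.0 size factors, library totals, other filters, fold 1.5, deposited FPKM, length classes and other member lists were alternatives. Positions are from GENCODE M21 (GRCm38) and promoters from RefSeq (GRCm38.p6). Computation was in Python 3.11.15 with SciPy 1.17.1, matplotlib 3.10.9, pandas 2.3.3 and NumPy 2.4.6. The procedure was tested on simulated data.

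The members and gene lists were chosen with earlier results of these data known. Members named were the 8 most abundant in the control, per comparison the 6 highest and 6 lowest by the interval bound nearest 0 at 10 CPM or more, every called member, every member with an interval on the other side of 0 from the median, the S18 paralogs, Mrps30 and Mrps36. From each companion list the 2 most abundant genes and the 2 with the largest ratios could be named. Mrpl1, Mrpl10, Mrpl22, Mrpl45, Mrpl46, Mrpl49, Mrps11, Mrps12, Mrps22, Dap3, Nrf1, Gabpa and Yy1 and the head-to-head partners were named after their values were seen, and the 1000-base window and motif letters were also chosen then.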

Additional observations from a re-analysis of the deposited data

How the results depend on the processing

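No paired analysis was possible because each group has 1 library. Of the counts and medians over the members, 82 values under the alternatives stayed within the set range and 23 moved, and 0 of the medians changed sign. For single named genes 526 stayed and 101 moved, and some changed sign. For Drosha-null over control, library totals took Mrps15 from -0.34 to 0.09, Mrps33 from -0.19 to 0.24 and Mrpl39 from -0.13 to 0.30. Members below 0 there went from 69 to 53. For Drosha-null over control, the 18 lower calls became 2 with library totals (2.7% of all genes called lower), 11 with totals without ribosomal RNA and globins (5.25%), 2 with deposited FPKM (3.5%), 4 within length classes (5.72%) and 46 at a fold of 1.5 (17.6%). They became 11 among the 44 members without exon overlap, an alternative added after seeing the data (7.79%). The median of -0.68 became -0.24, -0.49, -0.24 and -0.35 in the first 4 of these. For Drosha-null over Ter119-low, the 9 lower calls became 2, 3, 2 and 2 in the same 4 (2.79%, 4.59%, 3.63% and 5.06% of all genes) and 37 at a fold of 1.5 (14.8%). There the 0 higher calls became 1, Mrps31, with library totals, FPKM and a fold of 1.5 (18.7%, 19.3% and 18.2% of all genes), and the median of -0.54 became -0.20 with library totals and with FPKM and -0.32 within length classes. For Ter119-low over control the median of -0.16 became -0.04 within length classes, and 0 lower calls became 2 at a fold of 1.5 (4.9%). DESeq2 size factors, 2 added counts, other filters, whole-number counts and adding the 7 other genes moved none of these. Which scaling applies to these cells was not tested. With 25 to 882 counts per member in a library and no replicates, only counting error is known.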
